A study of Mus musculus with 2 samples.

Results

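Wnt signalling was examined through 56 genes that encode Wnt ligands, their receptors and antagonists, and the proteins that carry the signal to the nucleus. The genes were taken by symbol: the Wnt, Fzd, Dkk, Rspo, Lgr4 to Lgr6, Dvl and Axin families together with Lrp5, Lrp6, Wif1, Ctnnb1, Apc, Gsk3b, Lef1, the Tcf7 genes, Ror1 and Ror2. They account for 56 of the 18193 genes named by the arrays and for 115 probe sets, a probe set being a group of short probes that reads one transcript region. Of the symbols searched, Tcf7 was not among those matched to a probe set by the annotation used, and it was not analysed here.

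The cells were C2C12, a mouse myoblast line that fuses into multinucleated myotubes when serum is lowered. All cells were grown in 10% fetal bovine serum and then differentiated for 5 days in 2% horse serum. One group carried a hairpin against Lrrfip1 (shLrrfip1a) and the other a control hairpin (spelled shLCUI in the sample labels), and each group was read by 1 array of labelled total RNA. Only 1 hairpin sequence against Lrrfip1 is named, and the sources used here do not say whether the cells were a pool or a clone. Without a second array per group no spread between cultures is known, so no p-value, standard error or SD over replicates can be given and the number of arrays limits the precision. Differences are log2(intensity + 16) of the shLrrfip1a array minus that of the control array, and they are sorted by size alone.

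Wnt proteins are secreted, lipid-modified ligands that bind Frizzled receptors. With the co-receptors Lrp5 and Lrp6 they stop the complex of Axin, Apc and Gsk3b from marking beta-catenin for destruction, and beta-catenin then acts with TCF/LEF factors on target genes. Other Wnts act through Frizzled, Ror and Dishevelled proteins on cell polarity and calcium. In muscle, Wnt signals are known for their part in specifying and expanding myogenic cells and in differentiation and fusion.

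The hairpin left Lrrfip1 at 62.2% to 70.6% of the control intensity on its 3 probe sets. The myotube markers were bright on both arrays, with 11 of 12 above the level filter and a summed intensity of 21423 against 22932 in the control. Adipocyte markers were dim, 0 of 4 measured lying above the filter. Of 5 macrophage markers 2 did and of 4 endothelial markers 1 did, the endothelial receptor gene Kdr at 118 against 48.0, while Pecam1, Cdh5 and Tek read 15.1 to 33.6. The fibroblast markers, which include matrix genes that C2C12 cells also express, had 8 of 9 above the filter and summed to 23368 against 21151. Of these 8, 4 were higher and 4 lower with a median of 0.01. Dcn (3497 against 260) and Fbln1 (571 against 160) were past 2-fold, while Postn (-0.47), Col1a1 (-0.42) and Pdgfra (-0.35) were among the lower ones. The 4 myoblast markers were divided, with Myod1 at 894 against 602, Myf5 at 82.8 against 159 (-0.83), Cdh15 at 413 against 479 and Pax7, below the filter, at 22.6 against 70.3, and they summed to 1412 against 1311. The osteoblast and chondrocyte markers summed to 657 against 547. Whether these markers have a part in the Wnt values below was not tested, and in bulk RNA fewer cells of a type and less RNA per cell cannot be told apart.

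Of the 56 genes, 37 had a probe set whose mean lay above the level filter, which was set at the median over the probe sets of the arrays (an intensity near 52.4). A gene was read by its brightest probe set. The intensity exceeded the filter level on both arrays for 32 genes, on the shLrrfip1a array alone for 6, on the control array alone for 2 and on neither for 16. Among the 37, the median difference was 0.07 and the mean 0.08, against a median of 0.00 over all 11448 genes above the filter. The difference was under 0.25 in size for 20 of the 37.

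**Figure D1:**
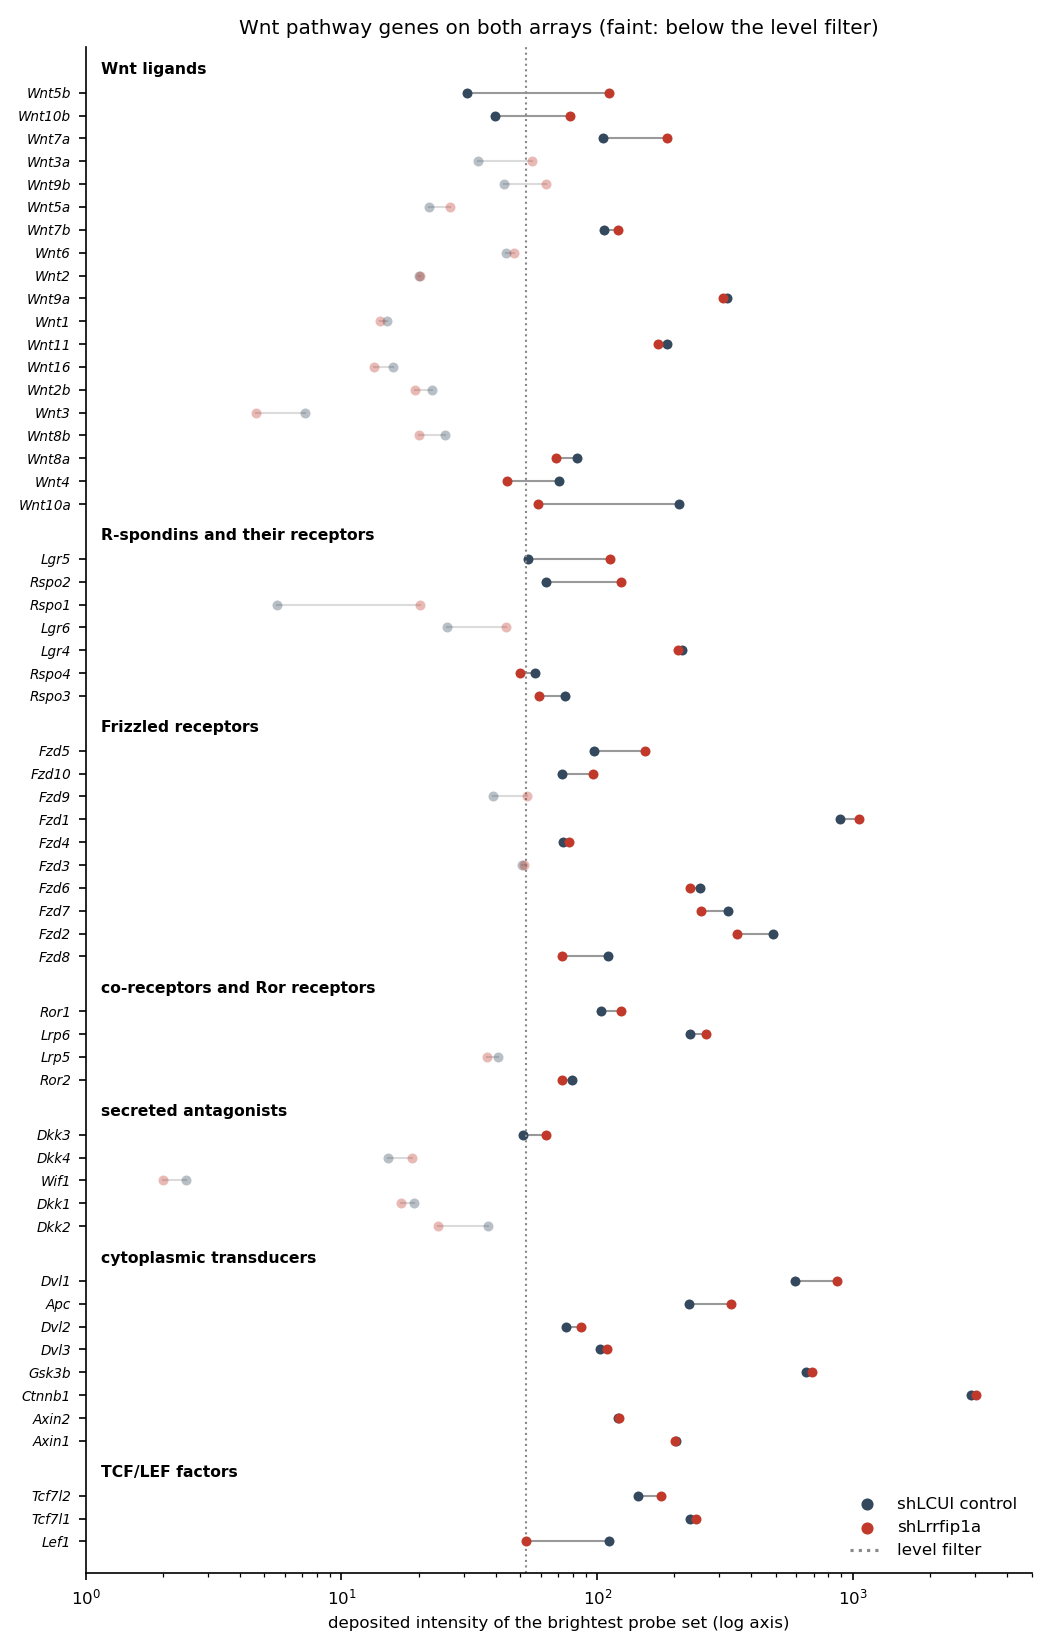
Deposited intensity of the brightest probe set of each of the 56 genes on the control array (dark) and the shLrrfip1a array (red), on a log axis, ordered within each role by the difference. The dotted line is the level filter at 52.4 and faint points belong to the 19 genes below it. Wnt10a and Wnt5b show the widest gaps among the genes above the filter, in opposite directions. Intensities of different genes depend on their probes and are not comparable.

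Fold sizes were counted after 16 was added to both intensities, which shrinks the differences of dim genes. On that scale at least a 2-fold difference was reached by 1 higher gene, Wnt5b, and 1 lower gene, Wnt10a. Among all genes above the filter, 0.664% were higher by that size and 0.69% lower. As deposited, without the added 16, Lgr5 was higher by 2.09-fold and Lef1 lower by 2.11-fold, so these 2 fell under 2-fold through the added value. Wnt5b read 31.0 in the control, under the filter level, and so passed the filter only through the array where it was high. At the smaller size of 1.5-fold, 5 of the 37 were higher, where 2.34% of all genes were: the ligand genes Wnt5b, Wnt10b and Wnt7a, the R-spondin gene Rspo2 and its receptor gene Lgr5. In the other direction 2 were at least 1.5-fold lower, where 2.46% of all genes were, the ligand gene Wnt10a and the transcription factor gene Lef1. Like Wnt5b, Wnt10b passed the filter only through the shLrrfip1a array (39.9 in the control), while Wnt7a, Rspo2, Lgr5, Wnt10a and Lef1 were above its level on both arrays. Lef1 (52.5 on the shLrrfip1a array) and Lgr5 (53.6 in the control) barely exceeded the level of 52.4. Since the filter can let in a gene through the array where it is high, the counts describe these 37 and are not support for an excess over all genes. The count of 5 higher genes came to 8 with the arrays scaled to spike-in controls and to 1 with 64 in place of 16 as the added value, where 1 lower gene was left of 2. When the genes above the filter were split by level into 4 bands of 2862 genes, all 7 lay in the dimmer 2 bands, at mean intensities under 199. Those bands also held most of the 37, with 15 in the dimmest and 9 in the next, against 9 and 4 in the brighter 2. The share of all genes past 1.5-fold differed little between bands, with 2.45% higher and 2.31% lower in the dimmest and 2.38% and 2.45% in the brightest. Scaling the arrays to the bacterial and phage spike-in controls added 0.15 to the median of all genes. With that scaling, 2 Wnt genes were at least 2-fold higher and 1 lower, and over all genes the counts changed from 76 higher and 79 lower to 116 and 56.

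**Figure D2:**
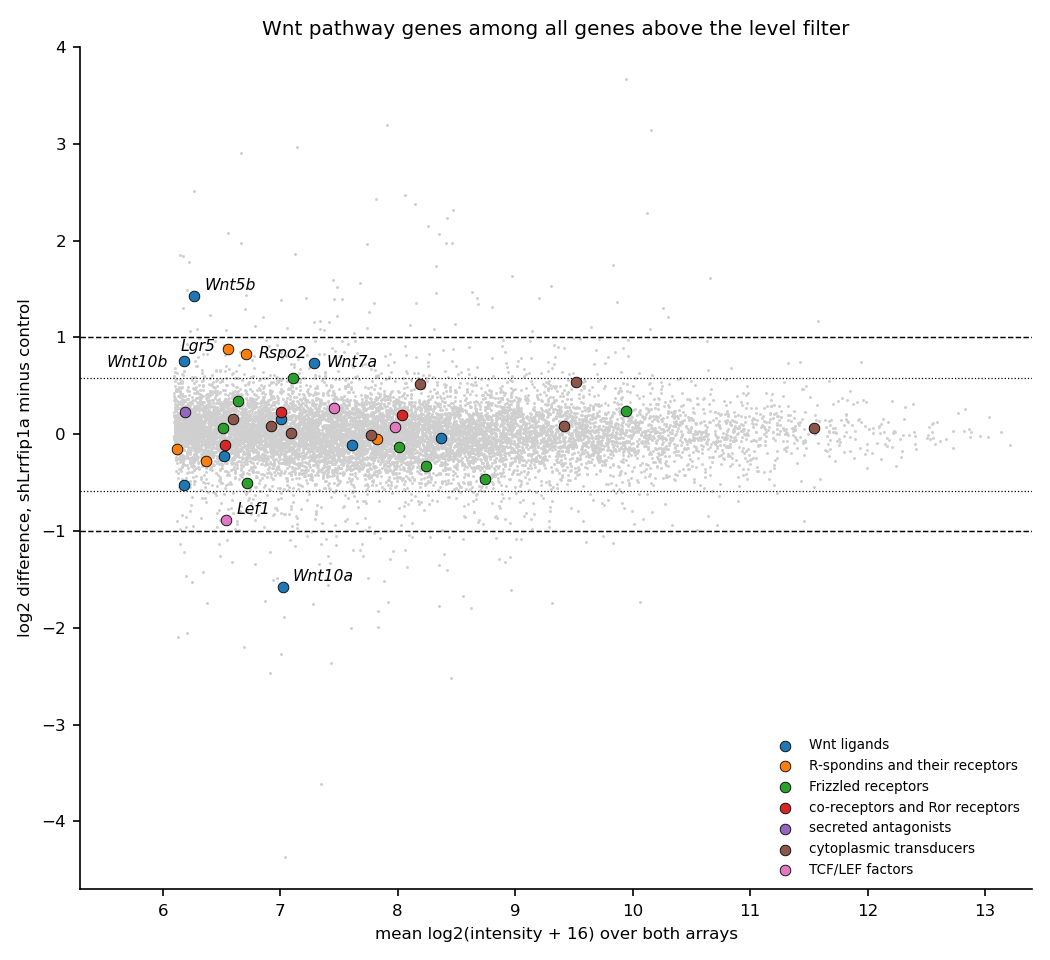
Log2 difference (shLrrfip1a minus control) against the mean log2(intensity + 16) for all 11448 genes above the filter (grey) and the 37 Wnt pathway genes (coloured by role). Dashed lines mark 2-fold and dotted lines 1.5-fold. The 7 named genes sit at the dim end of the range. Of the brightest members, Ctnnb1 (0.06) and Gsk3b (0.08) lie near 0, while Fzd1 (0.24) and Dvl1 (0.54) are higher but under 1.5-fold.

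The Wnt ligands stood on both sides of the control. Of 19 ligand genes, 9 were above the filter, 4 of them higher and 5 lower, with a median of -0.04. Wnt10a, a ligand of the beta-catenin branch known from teeth, hair and skin, read 58.8 on the shLrrfip1a array and 208 on the control array. The control array was the higher by 3.54-fold as deposited, which gave a log2 difference of -1.58, and 0.21% of all genes differed by as much or more in that direction. It has 1 probe set, so no other probe set could be set beside this value.

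Wnt10b, its closest relative and a ligand known for holding precursor cells back from the fat lineage, read 78.3 against 39.9 in the control (0.76). The 2 paralogs thus stood on opposite sides of the control, Wnt10a lower and Wnt10b higher. Wnt10b also has 1 probe set.

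Wnt5b, which acts mostly on the branch that does not use beta-catenin, read 111 against 31.0 (1.43), and 0.323% of all genes were as high or higher. That probe set is of the Affymetrix class that can also bind related transcripts. The other Wnt5b probe set read 66.8 against 40.1 (0.56) and lay just under the filter. Both were higher on the shLrrfip1a array, but without probe sets of the shared class Wnt5b was under 1.5-fold.

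Wnt7a, a ligand that promotes growth of muscle fibres and expansion of satellite cells, read 187 against 105 (0.74). Its other probe sets were dim and read 32.9 against 29.8 and 8.98 against 11.4. These gave 0.09 and -0.14, so a difference past 1.5-fold was seen on 1 of 3 Wnt7a probe sets. Of the other ligands above the filter, Wnt4 read 44.2 against 70.8 (-0.53) and Wnt8a 69.0 against 83.4 (-0.23). Wnt7b (0.16), Wnt11 (-0.11) and Wnt9a (310 against 320, -0.04) differed by less. Wnt4 exceeded the filter level on the control array alone, and its other probe set, below the filter, read 45.1 against 51.0 (-0.13). Wnt5a, the paralog of Wnt5b, was dim on all 4 of its probe sets, the brightest at 26.6 against 22.0.

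The 10 ligand genes below the filter were Wnt1, Wnt2, Wnt2b, Wnt3, Wnt3a, Wnt5a, Wnt6, Wnt8b, Wnt9b and Wnt16. The larger differences among them were those of Wnt3a, a ligand that activates beta-catenin (55.6 against 34.3, 0.51), and Wnt9b (63.1 against 43.1, 0.42, and 58.8 against 40.5 on its other probe set). Several Wnt genes lie side by side in the genome, and 4 such pairs had no protein-coding gene between them in the mouse gene table. The values of neighbours differed: Wnt10a (-1.58) beside Wnt6 (0.08), Wnt10b (0.76) beside Wnt1 (-0.04), Wnt3a (0.51) beside Wnt9a (-0.04) and Wnt9b (0.42) beside Wnt3 (-0.17). In each pair at least 1 gene was below the filter, so these pairs give values and no ranking.

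The stretches of 250 bases before the start sites are shown for those of the 7 genes that the RefSeq promoter table (GRCm38.p6) lists, because these genes differed most. Lgr5, Rspo2 and Wnt10a are not in that table. For each gene the window of the outermost start is given, plus any window with the TCF/LEF core CTTTGA on either strand (TCAAAG on the other), which is in capitals. Sequences run 5′ to 3′ on the strand of the gene.
Wnt5b, chr6:119544348-119544597, minus strand: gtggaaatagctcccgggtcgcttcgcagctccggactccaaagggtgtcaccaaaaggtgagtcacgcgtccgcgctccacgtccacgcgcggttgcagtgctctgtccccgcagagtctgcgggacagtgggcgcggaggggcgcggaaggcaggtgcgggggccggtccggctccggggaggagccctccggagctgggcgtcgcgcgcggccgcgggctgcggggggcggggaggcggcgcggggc
Wnt5b, chr6:119449387-119449636, minus strand: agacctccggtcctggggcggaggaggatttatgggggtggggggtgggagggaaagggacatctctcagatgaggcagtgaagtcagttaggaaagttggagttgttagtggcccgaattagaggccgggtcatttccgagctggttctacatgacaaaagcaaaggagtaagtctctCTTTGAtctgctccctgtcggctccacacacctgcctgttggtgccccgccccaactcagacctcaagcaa
Wnt10b, chr15:98778151-98778400, minus strand: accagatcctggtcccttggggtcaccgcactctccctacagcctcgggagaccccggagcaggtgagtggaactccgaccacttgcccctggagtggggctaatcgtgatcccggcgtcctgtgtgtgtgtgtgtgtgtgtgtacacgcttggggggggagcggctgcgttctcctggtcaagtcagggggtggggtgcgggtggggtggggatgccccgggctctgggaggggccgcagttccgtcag
Wnt7a, chr6:91411354-91411603, minus strand: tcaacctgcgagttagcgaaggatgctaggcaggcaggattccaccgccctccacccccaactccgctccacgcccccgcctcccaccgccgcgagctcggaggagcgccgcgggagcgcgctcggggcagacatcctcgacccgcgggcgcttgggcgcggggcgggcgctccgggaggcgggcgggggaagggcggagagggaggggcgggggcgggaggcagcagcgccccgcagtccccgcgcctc
Lef1, chr3:131110047-131110296, plus strand: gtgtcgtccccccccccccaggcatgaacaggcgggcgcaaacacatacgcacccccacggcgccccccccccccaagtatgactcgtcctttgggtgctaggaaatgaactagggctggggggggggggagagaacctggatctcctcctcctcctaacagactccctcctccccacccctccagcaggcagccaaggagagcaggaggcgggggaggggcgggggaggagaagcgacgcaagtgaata
Lef1, chr3:131156044-131156293, plus strand: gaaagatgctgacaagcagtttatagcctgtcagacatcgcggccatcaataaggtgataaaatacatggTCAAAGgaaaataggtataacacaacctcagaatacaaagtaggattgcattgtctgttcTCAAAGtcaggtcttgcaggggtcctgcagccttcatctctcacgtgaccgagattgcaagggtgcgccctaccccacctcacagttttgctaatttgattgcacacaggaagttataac
The core CTTTGA was found in 1 of 3 Wnt5b windows and 1 of 4 Lef1 windows, the latter with 2 matches, and in neither the Wnt10b nor the Wnt7a window. It occurred in 7 of 47 windows of the Wnt pathway genes (14.9%) and in 13.8% of all 32851 windows of the table, which also holds predicted and noncoding genes. The outermost windows were rich in G and C, at 75.2% for Wnt5b, 66.8% for Wnt10b, 77.6% for Wnt7a and 66.4% for Lef1. The median was 68.0% over all Wnt pathway windows and 52.4% over all windows. A match to so short a motif occurs often by its length alone and describes the sequence only.

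R-spondins are secreted proteins that strengthen Wnt signals by binding Lgr4, Lgr5 or Lgr6 and sparing Frizzled receptors from degradation. Rspo2, an R-spondin expressed in developing limb and muscle, read 124 against 62.9 (0.83), and its dimmer probe set read 31.8 against 22.5 (0.31). Lgr5, an R-spondin receptor and stem cell marker in several epithelia, read 112 against 53.6 (0.88). Its other probe set was dim on both arrays at 13.1 and 14.0. Both Rspo2 and Lgr5 were thus higher on the shLrrfip1a array on their brightest probe sets, while the receptor gene Lgr4 was nearly level at 206 against 215 (-0.05).

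The other R-spondin genes did not share this direction throughout. Rspo3 read 58.9 against 74.9 (-0.28), with 15.1 against 28.3 on its other probe set, and Rspo4 read 49.9 against 57.1 (-0.15). Rspo1 was below the filter at 20.2 against 5.59 (0.75) and was the 1 gene past 1.5-fold among the 19 below it, where 0.993% of all genes below the filter were at least 1.5-fold higher. Lgr6, also below the filter, read 44.1 against 25.8 (0.53).

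None of the 8 Frizzled receptor genes above the filter reached 1.5-fold, with 4 higher, 4 lower and a median of -0.03. Fzd5 stood just under that size at 153 against 96.9 (0.58), with a dim probe set at 28.1 against 25.6. As deposited, Fzd5 was 1.58-fold higher. Fzd5 was also past 1.5-fold with spike-in scaling and with 1 as the added value, so the absence of Frizzled genes at that size depends on these choices. Fzd2 read lower on all 3 probe sets, at 350 against 486, 354 against 420 and 268 against 353 (-0.46, -0.24 and -0.38). Fzd8 read 72.9 against 110 (-0.50), which is 1.5-fold lower as deposited. Fzd7, a receptor for Wnt7a in muscle, read 254 against 323 (-0.33). Fzd7's dimmer probe set read 42.7 against 38.9. Fzd1 read 1050 against 886 (0.24), Fzd10 96.4 against 73.0 (0.34), Fzd4 77.2 against 73.2 (0.06) and Fzd6 230 against 253 (-0.13). Fzd3 and Fzd9 were below the filter.

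The co-receptor gene Lrp6 read 266 against 230 (0.20) and 173 against 169 on its other probe set, whereas Lrp5 was below the filter at 37.1 against 40.9. The receptor tyrosine kinase genes Ror1 and Ror2, which serve the branch without beta-catenin, differed by 0.23 and -0.11. Among secreted antagonists, Dkk3, a divergent member of the Dickkopf family, was the 1 gene above the filter, at 62.8 against 51.2 (0.23). Dkk1, Dkk2 and Dkk4 read 15.2 to 37.5 and Wif1, which binds Wnts directly, 2.01 against 2.46.

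The cytoplasmic transducers were all above the filter, and none of the 8 reached 1.5-fold. Their median was 0.08, with 7 higher and 1 lower, though the direction of Axin1 and Axin2 changed with the scaling. With spike-in scaling Apc and Dvl1 were past 1.5-fold higher. Beta-catenin itself, encoded by Ctnnb1, read 3025 against 2897 (0.06), and its other probe sets gave 0.08 and -0.16. Gsk3b, the kinase that marks beta-catenin, read 689 against 653 (0.08), with differences of up to 0.20 over 5 probe sets above the filter.

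Apc, a scaffold of the destruction complex, read 334 against 228 (0.52) and was higher on each of its 4 probe sets, by 0.18 to 0.52. Dvl1, 1 of the 3 Dishevelled genes that relay the receptor signal, read 867 against 594 on its brightest probe set (0.54) but 373 against 396 on the other (-0.08). The 2 Dvl1 probe sets differed by 0.62, so the size and direction for Dvl1 depend on the probe set. Dvl2 (0.16) and Dvl3 (0.08) differed by less. Axin1, the scaffold of the complex, read 202 against 203 and Axin2, a feedback inhibitor and widely used target gene of beta-catenin, 121 against 120.

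Lef1, a TCF/LEF factor that is itself a known target of Wnt signalling, read 52.5 against 111 (-0.89), and its dimmer probe set read 21.9 against 33.9 (-0.40). Both probe sets were lower on the shLrrfip1a array, and 1.0% of all genes differed by as much or more in that direction. The other TCF genes did not share this. Tcf7l1, which mostly represses targets, read 242 against 230 (0.07) and 230 against 240 (-0.06). Tcf7l2 read 177 against 144 (0.27), with 84.3 against 81.2, 35.1 against 36.9 and 38.1 against 54.5 on its other probe sets.

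Probe sets of the same gene are the only repeated measure on these arrays. Over 4853 genes with 2 or more probe sets above the filter, the difference had a pooled SD of 0.17 between probe sets of a gene. That spread mixes probe noise with differences between the transcript regions read, within these RNA samples. It does not cover differences between cultures. Of the 10 Wnt pathway genes with 2 or more such probe sets, all probe sets differed in 1 direction in 5, against 60.3% of all such genes. They were Apc, Fzd1, Lrp6 and Tcf7l2, all higher, and Fzd2, lower. None of the 7 genes past 1.5-fold had a second probe set above the filter.

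**Figure D3:**
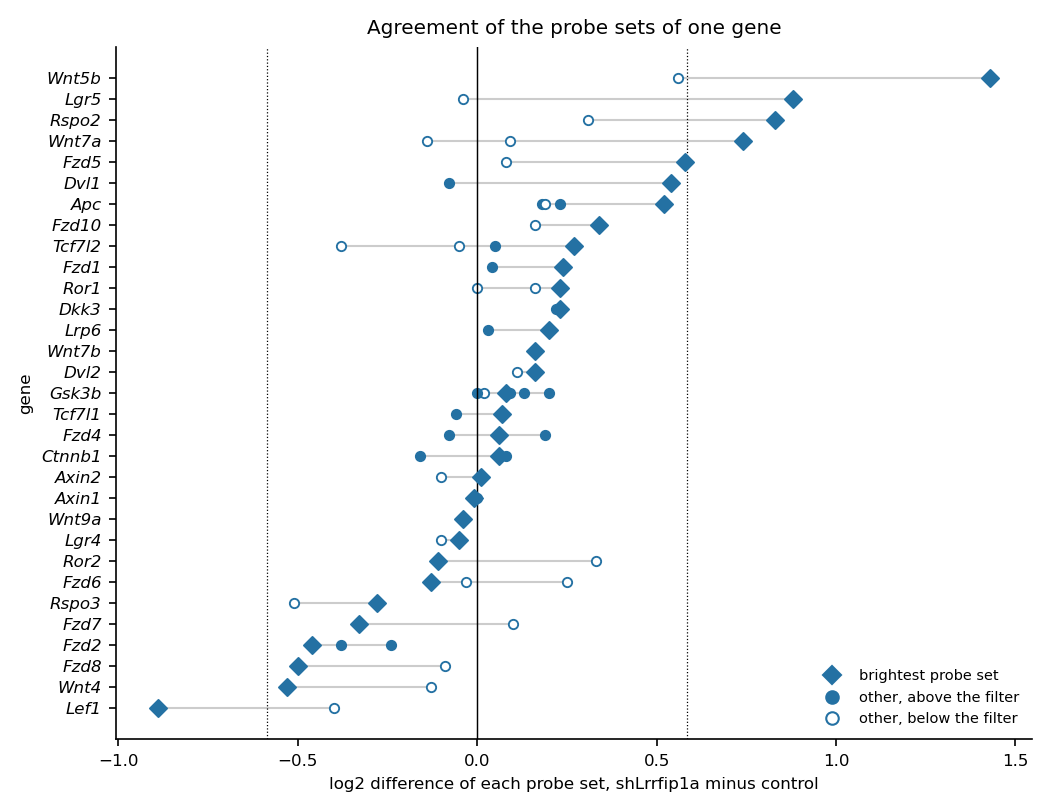
Log2 difference (shLrrfip1a minus control) of every probe set of the Wnt pathway genes above the filter that have 2 or more probe sets. Diamonds are the brightest probe sets, filled circles others above the filter and open circles others below it, and dotted lines mark 1.5-fold. The second probe sets of Wnt5b, Rspo2 and Lef1 lie on the same side of 0 as the brightest, while those of Lgr5 and 1 of those of Wnt7a lie just across it.

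The rest of the pathway was read through 5 lists of 84 genes, of which 67 were above the filter. At 1.5-fold 6 of these were higher and 3 lower, against 2.34% and 2.46% of all genes. The lists were chosen with earlier results of these data known, and Sulf1 passed the filter only through the control array. These counts therefore describe the lists and are not support for an excess over all genes. Secreted frizzled-related proteins bind Wnts outside the cell. Sfrp2 read 2804 against 907 (1.61), and Sfrp1 68.7 against 269 (-1.75), so the 2 stood on opposite sides as the Wnt10 paralogs did. Sfrp5 differed by -0.14.

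Of 14 feedback and target genes of beta-catenin above the filter, 1 was past 1.5-fold, Ccn5, a matricellular gene, at 678 against 386 (0.79). The list had 9 higher and 5 lower genes and a median of 0.09. Among feedback genes, Znrf3 (260 against 197, 0.37), Apcdd1 (0.24), Nkd2 (0.17), Nkd1 (200 against 199) and Notum (104 against 115) stayed under that size. So did the direct target Sp5 (125 against 153, -0.26). The cyclin Ccnd1 read 1339 against 955 (0.48). These values sit beside a nearly level Axin2 and a lower Lef1, so the known targets did not share 1 direction.

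Wnt secretion and extracellular handling held the widest difference of any list. Sulf1, an enzyme that trims sulfate from heparan sulfate and so changes how it holds Wnts, read 13.1 against 584 (-4.37). Its value on the shLrrfip1a array was far under the filter level, so the size depends on the added value, with -3.07 for 64 and -5.38 for 1. The second Sulf1 probe set above the filter read 9.62 against 199, and the remaining one was dim on both arrays at 21.1 and 20.4 (0.03). Sulf2, its paralog, was higher at 1639 against 762 (1.09), with 0.85 and 0.31 on its other probe sets. The brightest Sulf2 probe set is of the class that can also bind related transcripts, and without that class Sulf2 was under 2-fold (0.85). The glypican Gpc6, a heparan sulfate proteoglycan of the cell surface, read 435 against 232 (0.87) and was higher on each of 5 probe sets past the filter. The remaining 7 genes were each lower by under 1.5-fold, among them Porcn, which attaches the lipid to Wnts (444 against 564, -0.33), and Wls, which carries them to the surface (925 against 1073, -0.21). With spike-in scaling, differences of this size shift upward by about 0.15.

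None of 22 genes of beta-catenin destruction and its nuclear cofactors was past 1.5-fold (median -0.06), the furthest being Amer1, a partner of Apc (-0.40), and Bcl9l, a coactivator (0.39). Of 18 genes of the polarity and calcium branch, 3 were past it. The polarity genes Prickle1 (148 against 71.2, 0.91) and Prickle2 (160 against 90.1, 0.73) were higher. Daam1, which links Dishevelled to actin, was lower at 140 against 268 (-0.86), with -0.66 and -0.18 on its other probe sets.

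**Figure D4:**
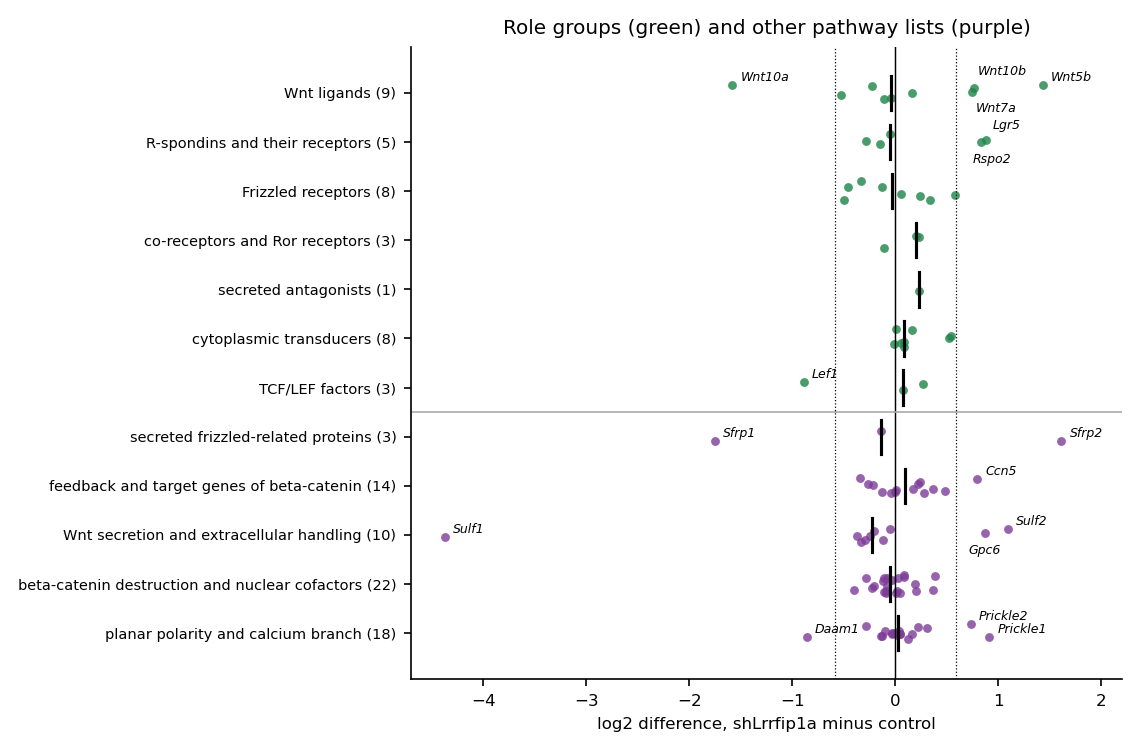
Log2 difference (shLrrfip1a minus control) of each gene above the filter, by role group (green) and other pathway list (purple), with the number of genes in parentheses. Black bars are medians, dotted lines mark 1.5-fold, and vertical scatter within a row carries no value. All medians lie between -0.23 and 0.23, and the named genes stand apart on both sides.

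The sizes for the 7 genes depend on the value added before the log, because their intensities were low. With 64 in place of 16 the differences of Lef1 (-0.58), Lgr5 (0.58), Rspo2 (0.57), Wnt7a (0.57) and Wnt10b (0.45) fell short of 1.5-fold, which is 0.585 on the log2 scale. Wnt10a kept a 2-fold size under every scaling and added value tried (-1.81 to -1.15), and Wnt5b lay between 0.88 and 1.80 under the same changes.

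**Figure D5:**
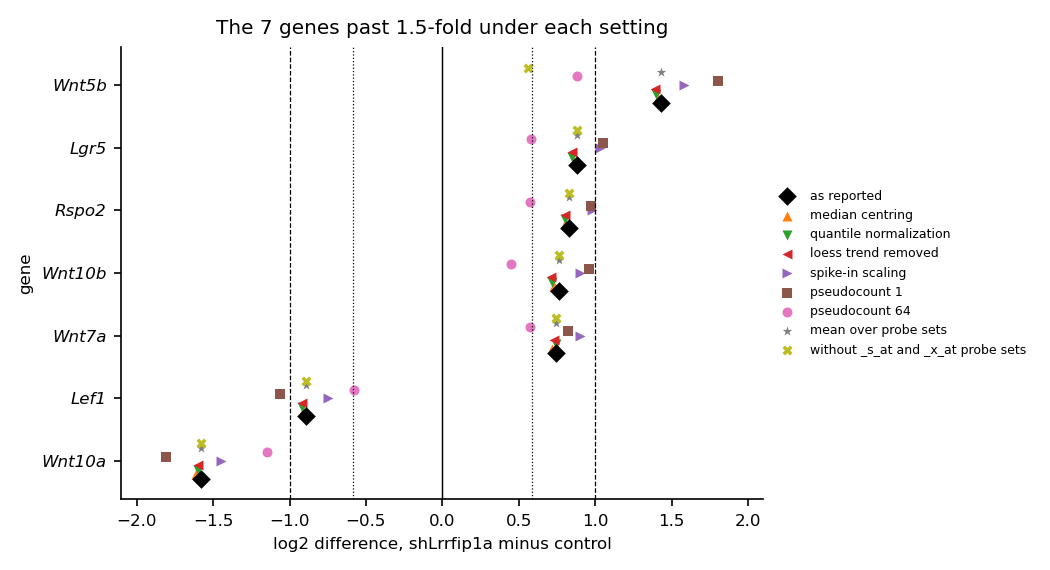
Log2 difference (shLrrfip1a minus control) of the 7 genes past 1.5-fold as reported (black diamonds) and under 8 alternatives (coloured marks), with dotted lines at 1.5-fold and dashed lines at 2-fold. Each gene stays on its side of 0, Wnt10a from -1.81 to -1.15 and Wnt5b from 0.56 to 1.80. The mean over probe sets repeats the reported value for all 7, since each has 1 probe set above the filter.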

How the data were processed

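The authors deposited linear intensity values, 1 for each of 45101 probe sets on 2 arrays. How they were summarised, scaled and corrected for background, and which probe sets were detected, is not given in the sources used here. The medians were 53.5 (shLrrfip1a) and 51.4 (control), and the Pearson correlation of the arrays was 0.99 across probe sets, which are not independent replicates. Through the platform annotation 34945 non-control probe sets had 1 gene symbol, and 34741 of these matched the GRCm38.p6 gene table by gene ID, including all 115 used here.

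Values were taken as log2(intensity + 16), and each difference is shLrrfip1a minus control, which understates changes of dim genes. Each gene was read by its brightest probe set (mean over both arrays), and kept above the 50th percentile of all non-control probe sets. Counts are by size, with no test. Genes were named when past 1.5-fold, brightest in their role group, split between probe sets by over 0.3, or among the 2 furthest of a pathway list, and the remaining members were accounted for. Some other pathway genes, such as Nkd1, Porcn and Wls, are also given and were not picked by this rule. Members, lists and rules were chosen with earlier results of these data known. Alternatives were 4 scalings, pseudocounts of 1 and 64, no filter, a 75th percentile filter, and the mean over the probe sets of a gene above the filter. Leaving out shared probe sets was added after seeing the data. The 2-fold count was tested on simulated data with changes well past 2-fold and small noise. The 1.5-fold count was not tested in that way. Python 3.11.15, numpy 2.4.6, pandas 2.3.3 and statsmodels 0.14.6 were used.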

Additional observations from a re-analysis of the deposited data

How the results depend on the processing

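No paired analysis was possible because only 1 array exists for each hairpin, and for the same reason no array could be left out. Quantile normalization, median centring, loess trend removal, dropping the filter and the mean over probe sets left the 5 higher and 2 lower Wnt pathway genes at 1.5-fold within 1.5 times of their count. Dropping the filter could not remove any of the 7 genes. The mean over probe sets used only those above the filter, and each of the 7 has 1, so their values could not change. Neither setting therefore tests these 7 genes. Spike-in scaling gave 8 higher at 1.5-fold, 2 higher at 2-fold, a median of 0.23 for the Wnt pathway genes and 116 higher over all genes. That scaling also turned the sign of 6 of the 37 genes, none of which differed by more than 0.13. With a pseudocount of 64 there was 1 higher and 1 lower at 1.5-fold, 0 higher at 2-fold, and 44 lower at 2-fold over all genes. A pseudocount of 1 gave 2 higher and 2 lower at 2-fold. The 75th percentile filter kept 15 Wnt pathway genes and removed all 7 that were past 1.5-fold, so both directions came to 0 at 1.5-fold and at 2-fold, with 48 higher and 46 lower over all genes at 2-fold. Without shared probe sets 0 were at least 2-fold higher.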

Other observations

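Among genes below the level filter, Pax7 and Gpc4 are named here after their values were seen, because each exceeded the filter level on the control array alone. Pax7, the transcription factor that marks satellite cells, differed by -1.16. Gpc4, a glypican, read 37.0 on the shLrrfip1a array against 67.8 on the control array (-0.66), on the opposite side of the control from Gpc6.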
